A study of Danio rerio with 19 samples.

Results

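The transcription factor genes *neurod1* (ENSDARG00000019566), *isl1* (ENSDARG00000004023), *insm1b* (ENSDARG00000053301) and a *pax6* gene (ENSDARG00000045936) belong to families known from vertebrate islet cells. Their transcripts were followed here through 4 sorted populations of islet cells from adult zebrafish. These 4 genes were chosen by name from the 31901 genes counted, and all 4 were among the 14693 genes abundant enough to be tested. The gene name table gives the symbol *PAX6* to 2 zebrafish genes and *INSM1* to 2 zebrafish genes, so the *pax6* gene and the second *INSM1* gene are identified by their IDs. Names in capitals are human symbols that the table gives to zebrafish genes.

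These factors belong to different protein families, and each family is known to act in islet cells of mouse. Neurod1 is a basic helix-loop-helix (bHLH) activator that works as a dimer with E proteins and, in mouse, drives endocrine differentiation downstream of Neurog3 and activates the insulin gene. Isl1 is a LIM-homeodomain factor whose LIM domains bind the adaptor Ldb1, and in mouse it is needed for islet cells to form and for insulin secretion to mature. Pax6 carries a paired domain and a homeodomain and, in mouse, sustains hormone gene transcription in several islet cell types. Insm1 is a zinc finger repressor whose N-terminal SNAG domain recruits the histone demethylase Kdm1a with its co-repressors, and in mouse it is needed for endocrine differentiation and for the mature state of β-cells.

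All fish were 6- to 10-month-old males and females carrying *Tg(sst1.1:eGFP)* and *Tg(ins:NTR\*-P2A-mCherry)*, in which a promoter fragment of *sst1.1* drives GFP and the *ins* promoter drives nitroreductase with mCherry. Bihormonal cells (6 libraries) were GFP+ mCherry+ cells taken from fish 20 days after an 18 hr bath in 2.5 µM nifurpirinol (NFP), which nitroreductase converts in β-cells into a toxic product. β-cells (7 libraries, mCherry+), GFPhigh cells (3 libraries, strong GFP) and GFPlow cells (3 libraries, weak GFP) came from control fish. These fish had 18 hr in 0.16% DMSO, and their day of sampling was not given. Each library was made by SMART-Seq2 from cells of the main islets of 2 to 4 fish, so a library is a pool of animals, and treatment with NFP cannot be told apart from the bihormonal state, since no other sort came from treated fish.

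Libraries held 5599246 to 18077658 counts, with a median of 10851802. The β-cell and bihormonal sorts carried the hormone transcripts of their labels. Together *ins*, *MNX1* and *NKX6-2* held 1956165 to 3434470 normalized counts in β-cells, 197194 to 867019 in bihormonal cells and 1133 to 11025 in GFPhigh and GFPlow cells. In bihormonal cells nearly all of this was *ins*, since *MNX1* averaged 11.4 and *NKX6-2* 0.345. The genes *sst1.1*, *sst1.2*, *sst2* and *hhex* together reached at least 2448777 in every GFP+ library, against 3706 to 66438 in β-cells. In GFPhigh cells *sst1.1* averaged 5654561 and *sst2* 28210, whereas in GFPlow cells *sst1.1* averaged 463957 and *sst2* 1719378. The paper holds that GFPlow cells contain *sst2* δ-cells and that GFPhigh cells are a separate δ-cell population with strong *sst1.1*. Some sorts also held transcripts of other islet cells. GFPlow libraries held 34517 to 61714 normalized counts of ghrelin (*ghrl*), against at most 1718 in any other library, and bihormonal replicate 6 held 64986 of the glucagon gene *gcga*, against 4039 to 28521 in the other bihormonal libraries. Counts of *gcga* were 13329 to 25838 in GFPlow libraries, 6982 to 13788 in β-cell libraries and 94.3 to 4509 in GFPhigh libraries. Marker sums of other tissues were lower: at most 11.6 normalized counts for endothelium, 3.33 for erythrocytes, 56.2 for leukocytes, 114 for mesenchyme and 312 for neurons and glia in any library. Acinar markers summed to 4069, 2288 and 114 in GFPlow replicates 1, 2 and 3 and to at most 806 in any other library, and duct markers, in part expressed by endocrine cells too, held 966 to 9620. Duct markers were mixed in GFPlow libraries, and their sum there, 6268 to 6513, lay within that of β-cells, 3808 to 9620. *ANXA4* held 3893 to 4994 in GFPlow libraries and at most 449 in any other library. *CFTR* and *krt4* were also highest there by mean (51.4 and 21.0). In contrast, *krt18a.1* averaged 508 in GFPlow cells against 3173 in β-cells. A *SOX9* gene (ENSDARG00000003293) averaged 43.9 in GFPlow cells against 172 in bihormonal cells. By their numbers the libraries formed 6 sets, separated by gaps of more than 10, and these sets are not stated to be batches. GFPlow libraries shared a set with β-cells alone (1 set), and bihormonal and GFPhigh libraries each shared sets with β-cells (2 each) and 1 set with each other.

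The factors ranged from nearly level to strongly divergent across the islet sorts. *neurod1* and *pax6* differed by 1.30-fold and 1.32-fold between their highest and lowest group means, *isl1* by 2.21-fold and *insm1b* by 47.0-fold. The median over all genes tested was 1.90-fold. Of these genes, 10.7% had a smaller spread of group means than *neurod1*, 12.0% a smaller spread than *pax6*, 61.7% a smaller spread than *isl1* and 96.5% a smaller spread than *insm1b*. In bulk samples, fewer cells of a type and less RNA per cell cannot be told apart, which holds for every level given here.

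**Figure D1:**
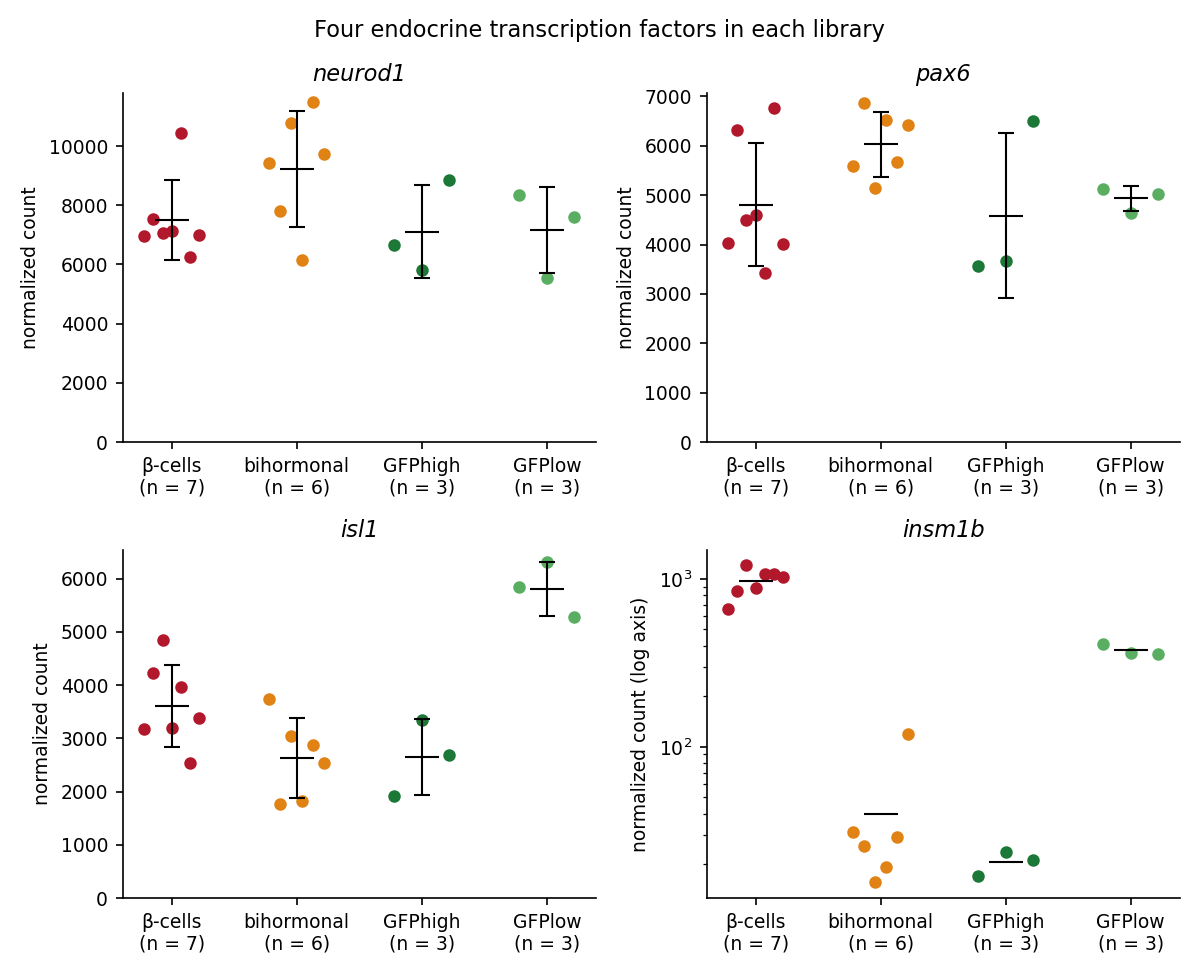
Normalized counts of the 4 factors in each library (points, 1 per library) by group, with the mean (horizontal line) and, on the linear axes, the SD (bars). *neurod1* overlaps between all groups and *pax6* between all except bihormonal and GFPlow cells (lowest 5142 against highest 5119), the 3 GFPlow libraries lie above the others for *isl1*, and on the log axis of *insm1b* β-cells (659 to 1204) and GFPlow cells (357 to 407) stand apart from bihormonal and GFPhigh cells.

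**Figure D2:**
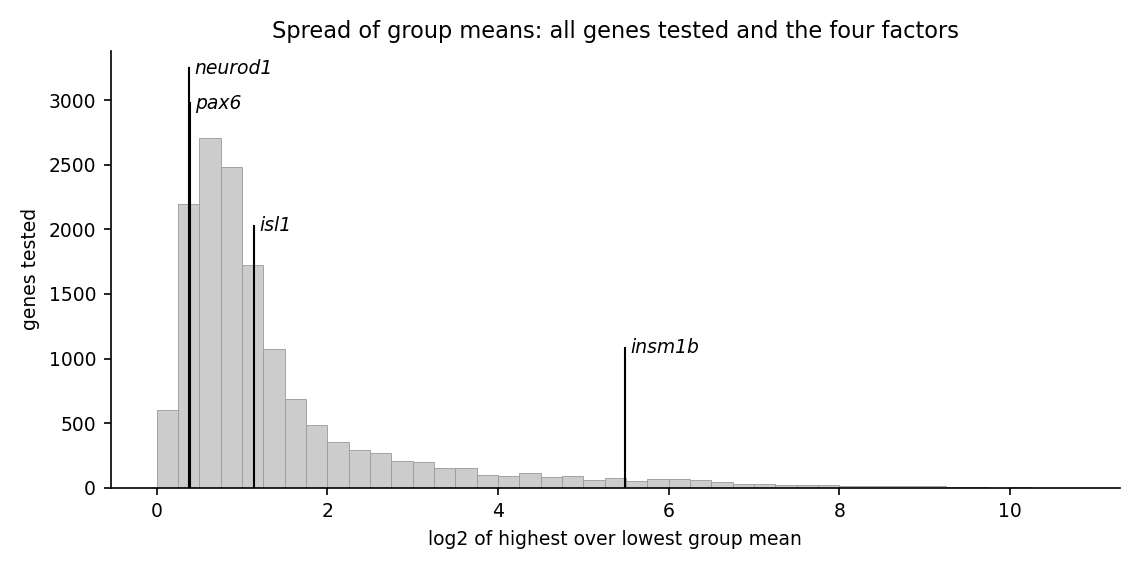
Spread of group means, as the log2 of the highest over the lowest of the 4 group means, for the 14693 genes tested (bars, number of genes), with the 4 factors as vertical lines. *neurod1* (0.38) and *pax6* (0.40) lie on the low side of the distribution, *isl1* (1.14) near its middle and *insm1b* (5.49) in its tail.

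Each pair of groups was compared for all genes in a single edgeR model, where a call needed an adjusted p under 0.05 in the quasi-likelihood test (Benjamini-Hochberg) together with a change of more than 2-fold. Between bihormonal cells and β-cells 1 of the 4 factors, *insm1b*, was called, where 13.2% of all genes tested were called. The count was 1 of 4 for GFPhigh cells against β-cells (18.1% of all genes) and 1 of 4 for GFPlow cells against β-cells (17.7%), again *insm1b* both times. *isl1* and *insm1b* were called between bihormonal and GFPlow cells (2 of 4, against 16.5% of all genes) and between GFPhigh and GFPlow cells (2 of 4, against 15.7%). Between bihormonal and GFPhigh cells 0 of 4 were called, where 2.76% of all genes were, and there 0 of the 4 had an unadjusted p under 0.05 in edgeR and 0 were called by DESeq2 or limma voom. All these calls were lower in the group named first. With so few members, these shares say little more than which gene was called.

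The groups did not overlap for 1 of 4 factors between bihormonal cells and β-cells (9.07% of all genes), for 1 between GFPhigh cells and β-cells (22.4%), for 2 between GFPlow cells and β-cells (26.2%), for 0 between bihormonal and GFPhigh cells (11.3%), for 3 between bihormonal and GFPlow cells (23.8%) and for 2 between GFPhigh and GFPlow cells (38.6%). *neurod1* overlapped in all 6 comparisons. Comparisons that share a group share its libraries and are not independent of each other.

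**Figure D3:**
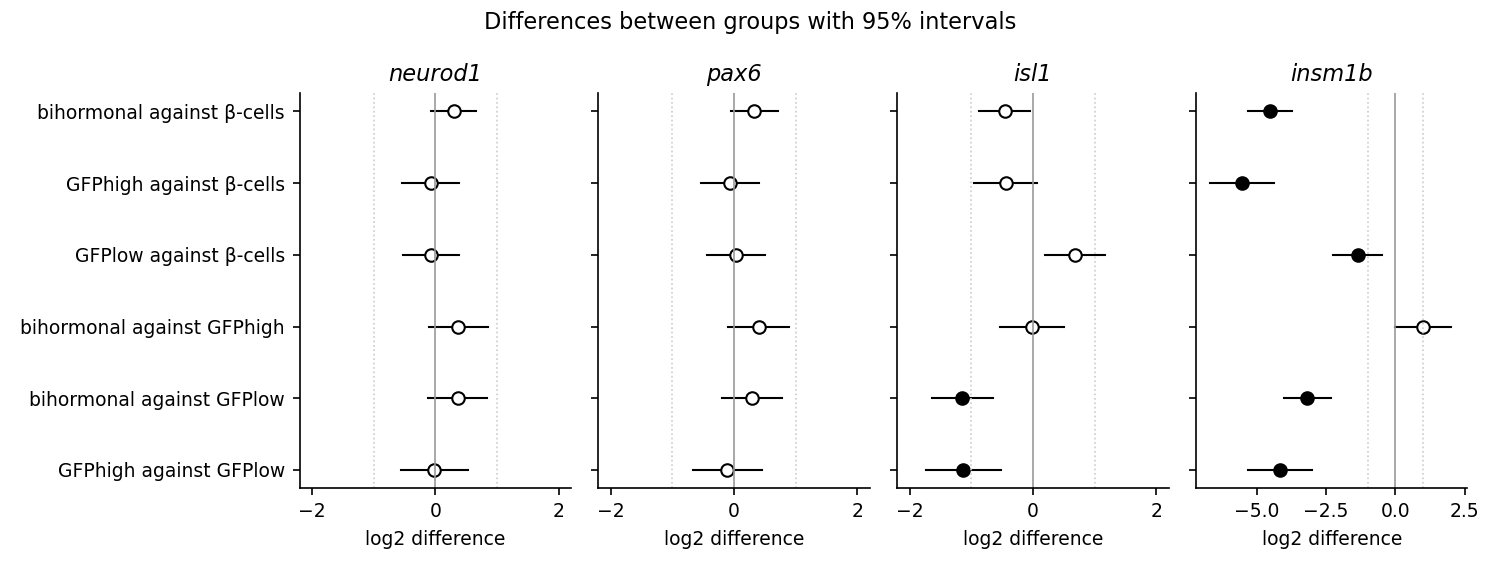
Log2 differences between groups (first minus second, circles) with 95% intervals (lines) for the 4 factors in the 6 comparisons, where filled circles passed an adjusted p under 0.05 and a 2-fold change (dotted lines mark 2-fold). All circles of *neurod1* and *pax6* are open, those of *isl1* are filled in the 2 lower comparisons with GFPlow cells, and those of *insm1b*, drawn on a wider axis, are filled in all comparisons except bihormonal against GFPhigh cells.

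*neurod1* was the most abundant of the 4 in normalized counts, which are not corrected for transcript length. β-cell libraries held 6268 to 10438 normalized counts with a median of 7081, and bihormonal libraries 6167 to 11478 with a median of 9573. The 3 GFPhigh libraries held 6663, 5804 and 8848, and the 3 GFPlow libraries 8363, 5548 and 7597. Every group overlapped every other, and the ranges of the 4 groups covered much the same span. The mean was 7491 ± 1353 (SD, n = 7) in β-cells, 9229 ± 1954 (SD, n = 6) in bihormonal cells, 7105 ± 1569 (SD, n = 3) in GFPhigh cells and 7169 ± 1456 (SD, n = 3) in GFPlow cells. The log2 difference between bihormonal cells and β-cells was 0.30 with a 95% interval of -0.07 to 0.67 (edgeR adjusted p = 0.278), so a 2-fold difference in either direction lay outside the interval. GFPhigh and GFPlow cells differed by -0.01 with an interval of -0.55 to 0.53 (adjusted p = 0.980 from the same test). In order of means bihormonal cells came first, then β-cells, GFPlow and GFPhigh cells, and no neighbours in this order differed beyond their spread.

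The *pax6* gene ENSDARG00000045936 showed the same flat profile. β-cell libraries held 3432 to 6766 normalized counts with a median of 4488, and bihormonal libraries 5142 to 6859 with a median of 6043. GFPhigh libraries held 3561, 3671 and 6510, and GFPlow libraries 5119, 4648 and 5030. The lowest bihormonal library, 5142, lay just above the highest GFPlow library, 5119, so these groups did not overlap, but their means, 6033 ± 660 (SD, n = 6) and 4932 ± 250 (SD, n = 3), differed by 0.29 on the log2 scale with an interval of -0.20 to 0.78 (edgeR adjusted p = 0.452). Means were 4808 ± 1250 (SD, n = 7) in β-cells and 4581 ± 1672 (SD, n = 3) in GFPhigh cells, where replicate 3 lay well above both other libraries. Bihormonal cells differed from β-cells by 0.33 (interval -0.05 to 0.71, edgeR adjusted p = 0.248), and GFPhigh cells from β-cells by -0.07 (interval -0.54 to 0.40, adjusted p = 0.843 from the same test). Within groups, the share of all genes tested with a larger coefficient of variation than *pax6* was 97.7% in bihormonal cells and 94.0% in GFPlow cells. It was 57.2% in β-cells and 44.8% in GFPhigh cells, so *pax6* was not steady in every group. Only 0.864% of genes tested had a higher mean than *pax6*, and its rank among genes of like abundance was not tested. On library totals alone, *pax6* spread more widely over the bihormonal libraries.

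*isl1* set GFPlow cells apart. The 3 GFPlow libraries held 5836, 6307 and 5283 normalized counts. β-cell libraries held 2531 to 4839 with a median of 3392, bihormonal libraries 1776 to 3731 with a median of 2708, and GFPhigh libraries 1928, 3351 and 2698. Each GFPlow library thus lay above every library of the other groups, and the other 3 groups overlapped. The mean of 5809 ± 512 (SD, n = 3) in GFPlow cells was 2.21-fold that of bihormonal cells, 2632 ± 751 (SD, n = 6), a log2 difference of -1.14 for bihormonal minus GFPlow cells (standard error 0.24, edgeR adjusted p = 0.00133). It was 2.18-fold that of GFPhigh cells, 2659 ± 712 (SD, n = 3), a log2 difference of -1.13 for GFPhigh minus GFPlow cells (standard error 0.29, edgeR adjusted p = 0.00863). Without GFPhigh replicate 1 the last difference was -0.94 (adjusted p = 0.0541 from the same test) and was no longer called. With the library set as a block, which reaches GFPlow cells through the β-cells of 1 set, the differences were -0.71 (adjusted p = 0.567) and -0.68 (adjusted p = 0.477 in edgeR).

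Against β-cells, 3616 ± 773 (SD, n = 7), *isl1* was 1.61-fold higher in GFPlow cells, a log2 difference of 0.68 (standard error 0.23, interval 0.19 to 1.17, edgeR adjusted p = 0.0411), which is under the 2-fold limit and therefore was not called. In the set that holds GFPlow replicates 2 and 3 and β-cell replicates 2 and 3, the means were 5795 and 4530, a log2 difference of 0.35. With the library set as a block the difference was 0.36 (edgeR adjusted p = 0.656). The adjusted p of the edgeR test was 0.251 with the replicate block and ranged from 0.0243 to 0.151 when single libraries were left out. Beside these levels of *isl1*, the GFPlow libraries held 1428799 to 2101880 normalized counts of *sst2*, against at most 38833 in any other library. They were also the ones with 34517 to 61714 of *ghrl*, and held more *gcga* than GFPhigh libraries (13329 to 25838 against 94.3 to 4509). The part of ghrelin cells or of other cells in the level of *isl1* was not tested. Bihormonal cells and β-cells differed by -0.46 (interval -0.87 to -0.05, edgeR adjusted p = 0.118) and bihormonal and GFPhigh cells by -0.01 (interval -0.53 to 0.50, adjusted p = 0.978 in edgeR). On library totals without a factor for composition, which moved the median of all genes by -0.64 between bihormonal cells and β-cells, the difference of *isl1* was -1.07 (adjusted p = 0.00181) and was called.

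*insm1b* was a gene of β-cells and, at a lower level, of GFPlow cells. β-cell libraries held 659 to 1204 normalized counts with a median of 1028, and the GFPlow libraries 407, 361 and 357. The GFPhigh libraries held 16.9, 23.6 and 21.1. The 6 bihormonal libraries held 31.2, 25.5, 15.6, 19.2, 28.9 and 119. Each β-cell library lay above each GFPlow library, and each GFPlow library above each library of bihormonal and GFPhigh cells. These levels rest on 587 to 1627 reads per library in β-cells, 250 to 372 in GFPlow cells, 14 to 20 in GFPhigh cells and 11 to 143 in bihormonal cells.

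The mean of *insm1b* was 966 ± 181 (SD, n = 7) in β-cells, 375 ± 28.0 (SD, n = 3) in GFPlow cells, 20.5 ± 3.35 (SD, n = 3) in GFPhigh cells and, in bihormonal cells, 40.0 ± 39.3 (SD, n = 6). Bihormonal cells stood 24.2-fold below β-cells (log2 difference -4.54, standard error 0.38, edgeR adjusted p = 1.65e-08) and GFPhigh cells 47.0-fold below (log2 difference -5.55, standard error 0.56, edgeR adjusted p = 2.96e-07). Both differences were present within library sets: -4.75 and -3.12 in the 2 sets that bihormonal cells share with β-cells, and -5.53 and -5.57 in the 2 sets that GFPhigh cells share with them. The β-cell factor gene *NKX6-2* had 2 reads over the 6 bihormonal libraries and 4 over the 3 GFPhigh libraries, against 10077 over the 7 β-cell libraries.

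GFPlow cells stood 2.58-fold below β-cells for *insm1b* (log2 difference -1.37, standard error 0.42, interval -2.24 to -0.49, edgeR adjusted p = 0.0214). This call rested on all 3 GFPlow libraries: without replicate 1, 2 or 3 the difference was -1.43, -1.34 and -1.32, and the adjusted p of the same test 0.0650, 0.0854 and 0.0831. Within the 1 set that both groups share (2 libraries each), the difference was -1.49. *NKX6-2* had 0 reads in the 3 GFPlow libraries and *MNX1* 3.88 to 33.8 normalized counts against 1451 to 2834 in β-cells. The same GFPlow libraries held 2886 to 11016 normalized counts of *ins*, against 1952653 to 3430395 in β-cells. They also held 34517 to 61714 of *ghrl* and 1428799 to 2101880 of *sst2*. The part of other cells in their level of *insm1b* was not tested. GFPlow cells exceeded bihormonal cells 9.38-fold (log2 difference -3.18 for bihormonal minus GFPlow cells, edgeR adjusted p = 5.50e-06) and GFPhigh cells 18.3-fold (log2 difference -4.18 for GFPhigh minus GFPlow cells, adjusted p = 2.29e-05 from the same test). Leaving out bihormonal replicate 6, the library with most *insm1b* of its group, moved the differences of bihormonal cells to -5.33 from β-cells and -3.96 from GFPlow cells, both still called. Bihormonal and GFPhigh cells share no library set with GFPlow cells.

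Bihormonal and GFPhigh cells, the 2 groups with least *insm1b*, differed by 1.00 on the log2 scale (interval -0.02 to 2.02, edgeR adjusted p = 0.188). Replicate 6 of the bihormonal cells, with 119, lay 4.96-fold above the mean of the other 5, which was 24.1 ± 6.54 (SD, n = 5), and without it the difference was 0.22. The same library held the most *gcga* of all libraries and 38833 normalized counts of *sst2*, against at most 16423 in any other bihormonal library, and 30.1 of *MNX1* against 3.46 to 16.3, while its count of *NKX6-2* was 0. The part of other cells in this library's *insm1b* was not tested.

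The other *INSM1* gene, ENSDARG00000091756, ran the other way. It was taken from a list of relatives of the 4 factors and singled out after its values were seen. β-cell libraries held 566 to 1193 normalized counts with a median of 1112, bihormonal libraries 1057 to 2836 with a median of 2206, GFPhigh libraries 2313, 3143 and 2089, and GFPlow libraries 2690, 3179 and 2329. GFPhigh and GFPlow cells lay wholly above β-cells, and bihormonal cells did so in every library except replicate 4. The mean rose from 937 ± 262 (SD, n = 7) in β-cells to 2099 ± 705 (SD, n = 6) in bihormonal cells (log2 difference 1.16, standard error 0.23, edgeR adjusted p = 0.000777), 2515 ± 556 (SD, n = 3) in GFPhigh cells (1.42, standard error 0.27, adjusted p = 0.000614) and 2732 ± 427 (SD, n = 3) in GFPlow cells (1.54, standard error 0.27, edgeR adjusted p = 0.000157). On library totals alone it was not called in bihormonal cells (0.59, edgeR adjusted p = 0.0879) or GFPhigh cells (1.00, adjusted p = 0.0298 but under 2-fold), where the median of all genes moved by -0.64 and -0.50.

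Set side by side, the 2 *INSM1* genes shared their reads evenly in β-cells and very unevenly elsewhere. *insm1b* took 51.2% ± 7.93 (SD, n = 7) of the reads of both genes in β-cells, between 43.1% and 65.4%. It took 12.2% ± 1.75 (SD, n = 3) in GFPlow cells, 0.823% ± 0.152 (SD, n = 3) in GFPhigh cells and, in bihormonal cells, 1.98% ± 1.78 (SD, n = 6). In single libraries the Wilson 95% interval of the share was 4.66% to 6.40% for bihormonal replicate 6 and 0.342% to 0.874% for bihormonal replicate 3, the highest and the lowest of that group, and such intervals cover counting error only, since reads copied by PCR carried no molecular identifiers. A share within a library does not depend on the scaling between libraries. The summed level of both genes was 1902 ± 363 (SD, n = 7) in β-cells and 2139 ± 705 (SD, n = 6) in bihormonal cells (1.12 times the β-cell mean). It was 2535 ± 558 (SD, n = 3) in GFPhigh cells (1.33 times) and 3107 ± 427 (SD, n = 3) in GFPlow cells (1.63 times). Unlike the shares, these sums depend on the scaling between libraries, and they were not tested. Outside β-cells most of this sum is the other gene, so changes in *insm1b* could move it little there. Whether one gene makes up for the other was not tested. The genes are paralogs, and reads that could match both were left as the authors' counting placed them.

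**Figure D4:**
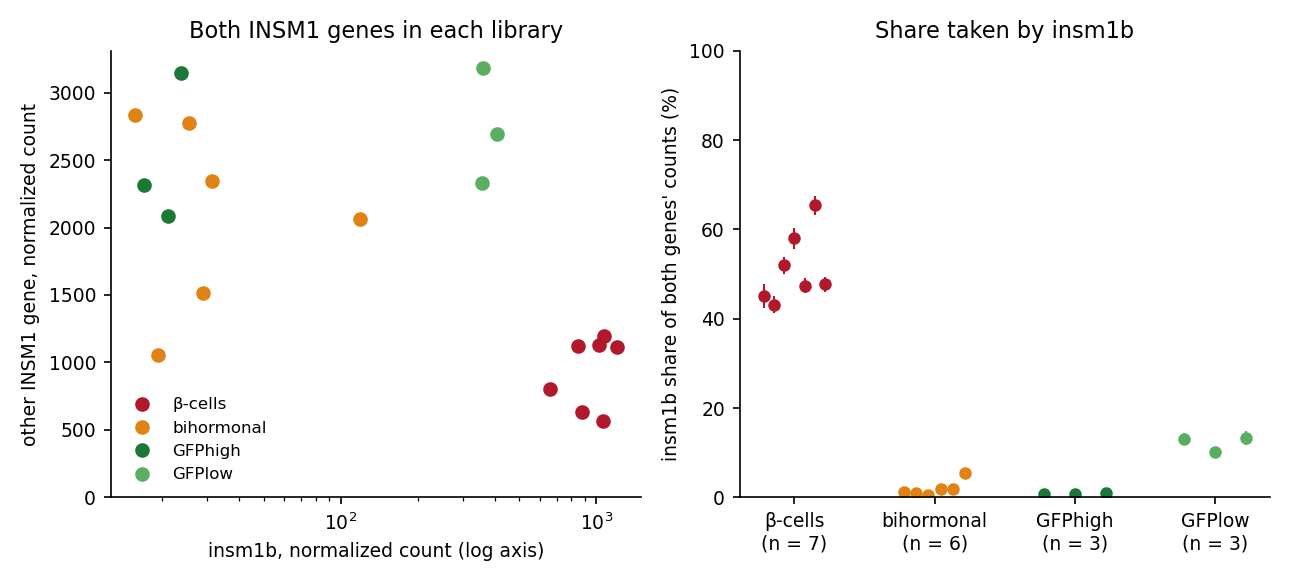
Left, normalized counts of *insm1b* (log axis) and of the other *INSM1* gene in each library, coloured by group. Right, the percent of both genes' reads that belong to *insm1b* in each library, with Wilson 95% intervals (bars), which is 43.1% to 65.4% in β-cells and at most 5.46% in bihormonal and GFPhigh cells.

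The remaining relatives of the 4 factors were low or absent. A *NEUROD6* gene (ENSDARG00000020794), a bHLH factor of the Neurod family known from mouse brain, was detected in GFPlow cells alone, with 57.2 to 73.7 normalized counts per library and 166 reads over the 3. It had 0 reads in every library of the other groups, and it passed the filter on low counts only through GFPlow cells. Taking 3 reads over each group as the floor, its GFPlow mean of 65.5 ± 8.23 (SD, n = 3) was at least 187-fold higher than in β-cells. The bound was 115-fold for bihormonal cells and 57.3-fold for GFPhigh cells. These bounds differ only through the number and depth of the libraries with 0 reads. *NEUROD2* and *NEUROD4* had 0 reads in all 19 libraries. An *ISL2* gene (ENSDARG00000003971), a LIM-homeodomain relative of *isl1*, averaged 18.3 ± 17.8 (SD, n = 6) in bihormonal cells, 26.1 ± 22.9 (SD, n = 3) in GFPhigh cells, 1.09 ± 0.997 (SD, n = 7) in β-cells and 2.66 ± 3.08 (SD, n = 3) in GFPlow cells. It passed the filter on low counts only through the groups where it is high, so its test is not given, and 1 library of each of these groups held 0 reads. The second *PAX6* gene had at most 2 reads in any group, so ENSDARG00000045936 supplied nearly all *PAX6* reads.

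Ratios of reads within a library are free of scaling, and no test was run on them. The ratio of *neurod1* to *pax6* reads had a median of 1.58 in β-cells, 1.60 in bihormonal cells, 1.58 in GFPhigh cells and 1.51 in GFPlow cells, although single libraries ranged from 0.926 to 3.04. The ratio of *neurod1* to *isl1* reads was 1.46 to 2.64 in β-cells, 2.53 to 4.40 in bihormonal cells, 1.73 to 3.46 in GFPhigh cells and 0.880 to 1.44 in GFPlow cells, so that every GFPlow library lay below every library of the other groups. The ratio of *isl1* to *pax6* reads was 1.05 to 1.36 in GFPlow cells and 0.259 to 0.667 in bihormonal cells. It was 0.374 to 1.15 in β-cells and 0.414 to 0.913 in GFPhigh cells, so it overlapped between GFPlow and β-cells. The median of this ratio was 0.451 in bihormonal cells and 0.785 in β-cells. Each ratio of 2 genes depends on transcript length too, and it was compared between groups and not between gene pairs.

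**Figure D5:**
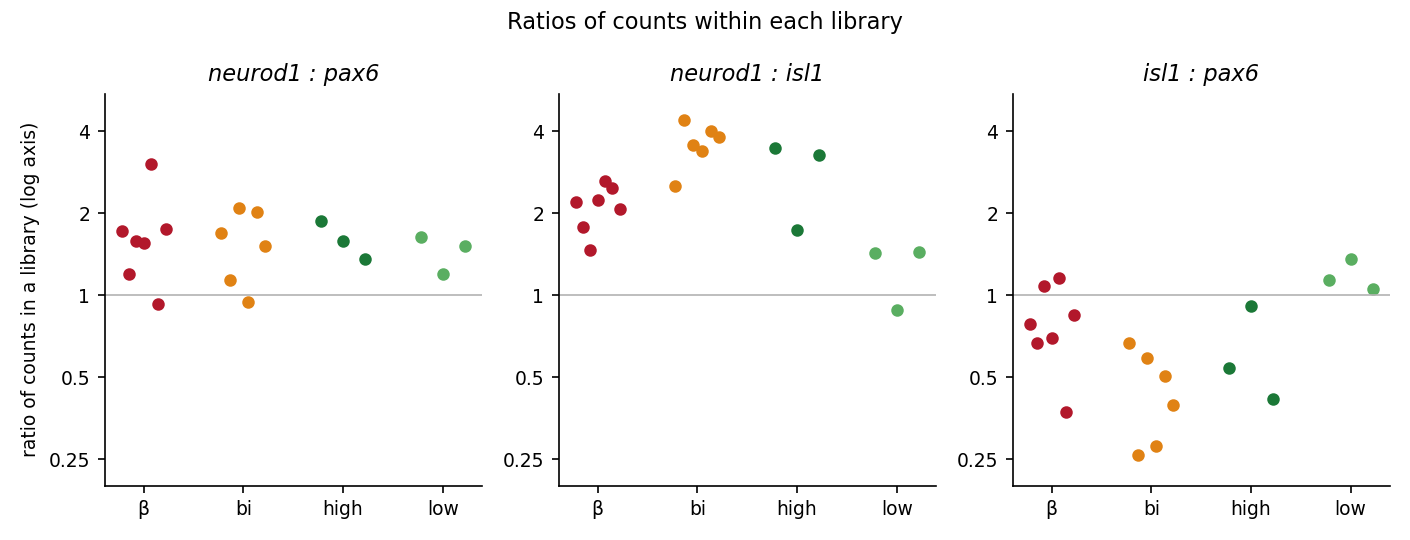
Ratio of raw reads of 2 factors within each library (log axis; points, 1 per library) for β-cells (β), bihormonal (bi), GFPhigh (high) and GFPlow (low) cells. The medians of *neurod1* to *pax6* lie between 1.51 and 1.60 in all 4 groups, whereas the GFPlow libraries are lowest for *neurod1* to *isl1* (0.880 to 1.44).

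Correlations between the 4 factors were mostly weak from library to library. Over the 19 libraries, Pearson's r of log2 levels was 0.57 between *isl1* and *insm1b* and between -0.30 and 0.18 for the other 5 pairs. With group means removed it was 0.17 for *isl1* and *insm1b*, 0.41 for *neurod1* and *isl1*, and between -0.27 and 0.16 for the other 4 pairs. These are descriptions over libraries that share their group and scaling.

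The genes whose pattern was most like each factor were taken from 8428 genes with a mean of at least 100, by Pearson's r of log2 levels over the 19 libraries. *insm1b* had close followers, with 30 genes above an r of 0.9: *C2CD4C* (0.98), the integrin subunit *ITGA9* (0.96), ENSDARG00000112040 (0.96), *MYZAP* (0.95) and *SH3D19* (0.94) came first. With group means removed, r for these genes was 0.76, 0.59, 0.45, 0.71 and 0.47 in the same order, so their likeness lay in part in the group means. *C2CD4C* averaged 1126 normalized counts in β-cells, 235 in GFPlow cells, 24.3 in bihormonal cells and 16.9 in GFPhigh cells. *isl1* was followed by the glycosyltransferase gene *B3GALT2* (0.89), the cell adhesion gene *alcamb* (0.87), *TFCP2* (0.86), *RNF34* (0.86) and ENSDARG00000100904 (0.86), and *alcamb* averaged 16030 in GFPlow cells against 2102 to 4845 in the other groups. No gene passed 0.8 for *neurod1* or *pax6*. The nearest to *neurod1* were *DHRS7* (0.73), *EXT1* (0.70), *TAF8* (0.70), *TMEM184A* (0.69) and *actb2* (0.67), and the nearest to *pax6* were *PHYH* (0.76), *ADIPOR2* (0.71), *BCAT1* (0.71), *ARFGEF1* (0.67) and *ulk1a* (0.67).

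Among the bHLH partners and inhibitors of Neurod1, the Id genes, whose products bind E proteins and keep them from DNA, were called in several comparisons and the E-protein genes in none. Against β-cells, bihormonal cells had 1 of 7 genes tested higher and 1 lower, GFPhigh cells likewise 1 and 1, and GFPlow cells 2 higher and 0 lower. Each time 28.6% of the 7 were called, against 13.2%, 18.1% and 17.7% of all genes tested. *HEY2*, described below, was among the higher genes each time, so these counts rest in part on how it passed the filter. The E-protein genes are *tcf3a*, *tcf3b* and *TCF12*. *tcf3a* averaged 59.5 ± 24.9 (SD, n = 6) in bihormonal cells against 122 ± 44.9 (SD, n = 3) in GFPhigh cells, a log2 difference of -1.03 (edgeR adjusted p = 0.115), and *tcf3b* differed by -0.60 between bihormonal and GFPlow cells (edgeR adjusted p = 0.0351), under the 2-fold limit. *ID2* averaged 206 ± 31.7 (SD, n = 3) in GFPlow cells against 15.5 ± 8.85 (SD, n = 7) in β-cells, a log2 difference of 3.72 (edgeR adjusted p = 1.13e-06), and 26.6 ± 12.0 (SD, n = 6) in bihormonal cells. Its relative *id2b* was lower in bihormonal cells, 91.6 ± 83.1 (SD, n = 6), and GFPhigh cells, 37.0 ± 5.91 (SD, n = 3), than in β-cells, 236 ± 94.6 (SD, n = 7), by -1.35 (edgeR adjusted p = 0.0280) and -2.67 (adjusted p = 0.00299 from the same test). *HEY2*, a repressor that acts downstream of Notch, averaged 95.8 ± 20.4 (SD, n = 3) in GFPhigh cells, where it was highest, against 8.12 ± 4.92 (SD, n = 7) in β-cells, and it passed the filter on low counts only through the GFP+ groups. The medians of the 7 log2 differences were -0.17, -0.06 and 0.40 for bihormonal, GFPhigh and GFPlow cells against β-cells, where those of all genes were 0.00, -0.11 and -0.06.

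Among the partners of Isl1, the LIM-only gene *LMO1*, whose product competes for Ldb1, was lower in bihormonal and GFPhigh cells than in β-cells and GFPlow cells. Of 10 genes for Ldb, LIM-only and single-stranded DNA binding proteins and Rlim, 3 were lower than in β-cells in the bihormonal sort, 1 was higher and 1 lower in GFPhigh cells, and 2 were lower in GFPlow cells. These are 30%, 20% and 20% of the 10, against 13.2%, 18.1% and 17.7% of all genes tested. In GFPhigh and GFPlow cells the share thus lay near that of all genes. *LMO1* averaged 901 ± 259 (SD, n = 7) in β-cells, 695 ± 48.0 (SD, n = 3) in GFPlow cells, 23.6 ± 17.3 (SD, n = 3) in GFPhigh cells and, in bihormonal cells, 27.3 ± 40.8 (SD, n = 6). The differences from β-cells were -4.93 in bihormonal cells (edgeR adjusted p = 3.94e-06) and -5.25 in GFPhigh cells (adjusted p = 0.000139), against -0.38 in GFPlow cells (adjusted p = 0.753 from the same test). *LMO4* ran the other way, with 61.9 ± 13.2 (SD, n = 3) in GFPlow cells and 242 ± 53.5 (SD, n = 6) in bihormonal cells, a log2 difference of 1.96 (edgeR adjusted p = 5.61e-05). The adaptor gene *LDB1* is present as 2 zebrafish genes. The more abundant, ENSDARG00000010137, was called in none of the 6 comparisons, though some of its differences failed only the 2-fold limit. In bihormonal cells it was higher than in β-cells by 0.73 (edgeR adjusted p = 0.00125) and than in GFPlow cells by 0.60 (adjusted p = 0.0347 from the same test). In GFPhigh cells it was higher than in β-cells by 0.65 (edgeR adjusted p = 0.0131). The other, ENSDARG00000103158, was higher in GFPhigh cells than in β-cells (log2 difference 1.43, edgeR adjusted p = 0.0177). The medians of the 10 differences from β-cells were -0.47, 0.05 and -0.31 in bihormonal, GFPhigh and GFPlow cells.

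Most genes of the co-repressors that Insm1 recruits were called in no comparison. Of 12 genes tested, 10 were called in none of the 6 comparisons, among them *KDM1A*, *RCOR1*, *HDAC1* and *HMG20B*, a share of 83.3% where 64.9% of all genes tested were called in none. On library totals alone the count was 5 of 12, against 47.4% of all genes. The demethylase gene *KDM1A* averaged 488 ± 104 (SD, n = 7) in β-cells, 411 ± 100 (SD, n = 6) in bihormonal cells, 403 ± 190 (SD, n = 3) in GFPhigh cells and 435 ± 34.6 (SD, n = 3) in GFPlow cells. The exceptions were *PHF21A* (ENSDARG00000006878), a subunit of the Kdm1a complex, and *GSE1*. *PHF21A* was higher than in β-cells, 64.4 ± 13.3 (SD, n = 7), in bihormonal cells, 213 ± 61.5 (SD, n = 6; log2 difference 1.72, edgeR adjusted p = 5.03e-06), GFPhigh cells, 203 ± 68.0 (SD, n = 3; 1.65), and GFPlow cells, 420 ± 50.8 (SD, n = 3; 2.70). The other *PHF21A* gene, ENSDARG00000021378, was called in none of the 6 comparisons. It averaged 166 ± 60.8 (SD, n = 7) in β-cells and 148 ± 46.2 (SD, n = 6) in bihormonal cells. *GSE1* was lower in bihormonal cells, 149 ± 58.8 (SD, n = 6), than in β-cells, 431 ± 58.7 (SD, n = 7), by -1.55 (edgeR adjusted p = 5.76e-06) and lower than in GFPhigh cells by -1.04 (adjusted p = 0.0332 from the same test).

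The flat profiles of *neurod1* and *pax6* were not the rule among islet transcription factors. Of 32 other islet factors tested, 6 (18.8%) were called in none of the 6 comparisons, against 64.9% of all genes tested, and 7 on library totals alone. Between bihormonal cells and β-cells 6 were higher and 4 lower, between GFPhigh cells and β-cells 9 and 7, between GFPlow cells and β-cells 8 and 7, between bihormonal and GFPhigh cells 2 and 1, between bihormonal and GFPlow cells 7 and 5, and between GFPhigh and GFPlow cells 9 and 8. In this order 31.25%, 50%, 46.9%, 9.38%, 37.5% and 53.1% of the 32 were called. Over all genes tested the shares were 13.2%, 18.1%, 17.7%, 2.76%, 16.5% and 15.7%. Among others, *hhex* passed the filter on low counts only through the GFP+ groups and *NKX6-2* only through β-cells. The counts of higher and lower factors are thus in part set by the filter. On library totals alone these counts were 6 and 10, 6 and 9, 8 and 6, 2 and 0, 5 and 8, and 5 and 12, so the balance of higher and lower factors rests on the scaling. The homeobox gene *hhex*, a δ-cell factor, averaged 540 ± 140 (SD, n = 6) in bihormonal cells against 1.86 ± 1.81 (SD, n = 7) in β-cells. *MNX1*, a factor gene that the paper lists for both β-cells and α-cells of zebrafish, averaged 11.4 ± 10.4 (SD, n = 6) and 2011 ± 477 (SD, n = 7) in the same groups. The 2 factors called higher in bihormonal than in GFPhigh cells were *NKX6-1* and *ascl1a*. They averaged 68.3 ± 35.3 and 14.4 ± 7.16 (SD, n = 6) in bihormonal cells, 32.0 and 14.0 in β-cells, and had 0 reads in the 3 GFPhigh libraries. *RFX6*, a winged-helix factor of endocrine cells, was higher in GFPhigh cells, 2907 ± 414 (SD, n = 3), than in bihormonal cells, 1347 ± 487 (SD, n = 6). Its log2 difference was -1.11 for bihormonal minus GFPhigh cells (edgeR adjusted p = 0.0454). *PROX1* was highest in GFPlow cells, with 362 ± 33.9 (SD, n = 3) against 71.1 ± 30.1 (SD, n = 3) in GFPhigh cells (log2 difference -2.35 for GFPhigh minus GFPlow cells, adjusted p = 0.000294 from the same test). The list includes factors that were known to differ between these sorts, so its share is not independent evidence about islet factors in general.

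Genes of the secretory granule are in part under the control of these factors in mouse. Against β-cells, bihormonal cells had 6 of 20 genes higher and 0 lower, GFPhigh cells 10 higher and 0 lower, and GFPlow cells 3 higher and 5 lower. In this order 30%, 50% and 40% of the 20 were called, against 13.2%, 18.1% and 17.7% of all genes tested. The gene *vgf*, among the higher ones each time, passed the filter on low counts only through the GFP+ groups. On library totals alone the counts were 1 and 1, 5 and 0, and 3 and 4, so the direction of the list in bihormonal cells rests on scaling for composition. The medians of the 20 differences were 0.43, 0.88 and -0.56, where those of all genes were 0.00, -0.11 and -0.06. The granin gene *scg2b* averaged 3065 ± 241 (SD, n = 7) in β-cells, 9589 ± 3362 (SD, n = 6) in bihormonal cells (log2 difference 1.65, edgeR adjusted p = 2.70e-06) and 14296 ± 3753 (SD, n = 3) in GFPhigh cells (2.22, adjusted p = 4.15e-07 from the same test). *CPE*, the carboxypeptidase that trims prohormones, was lowest in GFPlow cells with 5185 ± 677 (SD, n = 3) and averaged 27260 ± 6345 (SD, n = 6) in bihormonal cells (log2 difference 2.39, edgeR adjusted p = 6.96e-06). *chgb* (chromogranin B) ran the other way, with 232 to 460 in the 3 GFPlow libraries and 17.7 to 42.2 in the 7 β-cell libraries (log2 difference 3.44, edgeR adjusted p = 2.18e-06).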

How the data were processed

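RNA of 19 libraries was sequenced on an Illumina HiSeq2500 as 75-base single-end reads. The authors aligned them with STAR to GRCz11 with Ensembl 92 annotation and deposited raw counts per gene from featureCounts, 1 table per library. Versions and strand setting are not given in the sources used here. Of 31901 IDs, 29178 had a symbol in the gene name table. No gene sequence, position or length was used here, so levels were not compared per length.

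TMM factors (trimmed mean of M-values, 0.476 to 1.38) scaled the counts to normalized counts. One edgeR 4.0.16 quasi-likelihood model (R 4.3.3) with 1 mean for each group took in all 19 libraries and the 14693 genes whose normalized counts averaged at least 10, with Benjamini-Hochberg adjustment over these genes and calls at an adjusted p under 0.05 and a fold above 2. The common dispersion of 0.139 equals a biological coefficient of variation of 37.3%, and the scripts were tested on simulated counts. Libraries of a group differed by more than sampling noise in every pair (chi-square per degree of freedom at least 18.6). Bulk depth per library sets the counting floor, taken as 3 reads. Alternatives were DESeq2 1.42.0, its size factors in edgeR, limma 3.58.1 voom with quality weights, library totals, TMM without hormone and mitochondrial genes, other filters, a fit of 2 groups, the replicate number or library set as a block, and each library left out.

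The 4 factors, the gene lists and the tests were chosen with earlier results of these data known. Genes named are the 4 factors, their relatives and the 5 genes most like each factor. From the lists, some were named of the up to 4 called genes per list and comparison with the smallest adjusted p. Other genes, named as called in none of the comparisons, were chosen after their values were seen, as was the share of reads between both *INSM1* genes. Of 181 list symbols, 16 had no match. One marker gene is not reported here.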

Additional observations from a re-analysis of the deposited data

Results flagged for a closer look

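Dixon's test for a library far from the rest of its group was applied to the 4 factors and the other *INSM1* gene in β-cells and bihormonal cells, 10 groups of values, of which 2 were found. Chance finds about 1 in 20, and groups of 3 libraries were not tested. *neurod1* held 10438 normalized counts in β-cell replicate 5, the highest of the 7 β-cell libraries, whose others held 6268 to 7541. *insm1b* held 119 normalized counts in bihormonal replicate 6, where the other 5 bihormonal libraries held 15.6 to 31.2.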

How the results depend on the processing

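Of 468 alternative values of the 24 differences of the 4 factors, 426 kept their direction and their side of the limits. The 5 calls of *insm1b* kept their direction throughout, and those in bihormonal and GFPhigh cells were called under every setting run. On library totals alone, which moved the median of all genes by -0.64, -0.50, -0.73 and -0.58 for bihormonal and GFPhigh cells against β-cells and against GFPlow cells, 2 of the 4 factors were called between bihormonal cells and β-cells (*isl1* added) and 0 between GFPlow cells and β-cells, where *insm1b* was -1.21 (adjusted p = 0.148). Changes of sign there, all in uncalled values, were *neurod1* -0.32 and *pax6* -0.30 for bihormonal cells against β-cells, *neurod1* 0.0846 for GFPlow cells against β-cells, and *neurod1* -0.41 and *pax6* -0.50 for bihormonal against GFPlow cells. Higher and lower calls over all genes became 717 and 2851, 874 and 2554, 482 and 3747, and 503 and 2553 in these 4 comparisons, from 1086 and 847, 1525 and 1131, 1157 and 1274, and 1155 and 1150. Among the genes named from the lists, *scg2b* in bihormonal cells (1.00 against β-cells), *RFX6* and *GSE1* between bihormonal and GFPhigh cells (-1.24 and -1.25) and *LDB1* ENSDARG00000103158 in GFPhigh cells (0.97) were not called on library totals.

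With the library set as a block, 1 of 4 factors was called between bihormonal and GFPlow cells and 1 between GFPhigh and GFPlow cells, since *isl1* lost its calls. Bihormonal replicates 1 to 3 and GFPlow replicate 1, alone in their sets, do not enter that fit's differences. Signs changed there for *pax6* in GFPhigh cells (0.0525) and GFPlow cells (-0.16) against β-cells, and for *neurod1* (0.0343), *pax6* (0.21) and the other *INSM1* gene (0.12) between GFPhigh and GFPlow cells. DESeq2 gave *neurod1* 0.0130 for GFPlow cells against β-cells and its size factors 0.0131, limma voom gave 0.00362 there and 0.31 for *isl1* between bihormonal and GFPhigh cells, and TMM without hormone and mitochondrial genes gave *neurod1* 0.0105 between GFPhigh and GFPlow cells.

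Deviations of same-numbered libraries from their group means were weakly correlated (-0.24 to 0.11). With 3 to 6 such pairs per comparison, this check cannot settle whether the replicate numbers pair samples. With the replicate block the counts of factors called stayed at 1, 1, 1, 0, 2 and 2, *isl1* was 0.13 between bihormonal and GFPhigh cells, and the calls over all genes were 1673 for GFPhigh cells against β-cells and 3 for bihormonal against GFPhigh cells, from 2656 and 405.

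Leaving out each library in turn gave 0 to 1 factors called for GFPlow cells against β-cells and 1 to 2 for GFPhigh against GFPlow cells. Signs changed for *neurod1* (GFPhigh against β-cells -0.27 to 0.0528, GFPlow against β-cells -0.19 to 0.0912, GFPhigh against GFPlow cells -0.20 to 0.11), *pax6* (-0.41 to 0.0824, -0.0195 to 0.14 and -0.45 to 0.0456), *isl1* between bihormonal and GFPhigh cells (-0.20 to 0.19) and the other *INSM1* gene between GFPhigh and GFPlow cells (-0.31 to 0.00325). The count of all genes called between bihormonal and GFPhigh cells, 405, was the least steady, at 13 to 922 without single libraries, 1151 with DESeq2, 128 with limma voom, 50 on library totals, 26 in a fit of the 2 groups and 41 with set as a block. With the set block 676 and 819 genes were called for bihormonal and GFPhigh against GFPlow cells, from 2431 and 2305, and without GFPhigh replicate 2, 1686 for GFPhigh cells against β-cells. The cause of these shifts was not tested. *insm1b* in bihormonal and GFPhigh cells rests on 11 to 143 reads per library, which limits its precision there.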
